A study of Homo sapiens with 12 samples.

Results

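The peak pairs described here lie at SEPTIN9 (also called SEPT9), on the plus strand of chromosome 17. A peak pair is 1 exonuclease border on each DNA strand, joined into a single site by the authors. A pair was taken when its midpoint fell in the gene body (hg19 chr17:75276651-75496678, 220 kb) or within 50 kb on either side, which gave a locus of 320 kb (chr17:75226651-75546678). Of the 2591856 peak pairs in the 11 lists, 1888 met this rule. The number per list ran from 33 in control BCL9 replicate 1 to 342 in BCL9-KD pSTAT3 replicate 2. The annotation gave SEPTIN9 29 protein-coding transcripts with 28 start sites (TSSs), which formed 15 clusters when TSSs within 2 kb were joined.

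The cells were DCIS.COM, a human breast cancer cell line of the basal ductal carcinoma in situ type. The control group carried the non-silencing (NS) construct, which the labels call "Non-scrambled control", and the second group carried a knockdown of BCL9 (BCL9-KD). ChIP-exo, in which an exonuclease trims precipitated DNA up to the crosslinked protein, was done with antibodies to serine-phosphorylated STAT3 (phospho-S727, written pSTAT3 here), to BCL9 and to CTCF. There were 3 control and 2 BCL9-KD libraries for each of pSTAT3 and BCL9, and 1 control library for CTCF. All libraries came from this 1 cell line, and the labels number them as biological replicates. An IgG library is not analysed here. The level of BCL9 itself is not measured in these files, so the knockdown could not be checked. The pSTAT3 lists held 98665 to 493174 pairs and the CTCF list 457119. The BCL9 antibody lists held 24728 to 148755 pairs in control cells and 95586 and 336493 in BCL9-KD cells.

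SEPTIN9 encodes a septin, a GTP-binding protein that assembles with other septins into filaments at the cell cortex, along actin and at the division site. The gene is transcribed from several alternative promoters into isoforms with different amino termini, and methylation of its promoter DNA is used as a blood marker of colorectal cancer. STAT3 is a transcription factor of cytokine signaling. BCL9 is a coactivator best known for linking beta-catenin to Pygopus, and CTCF is the zinc finger protein that marks domain borders and loop anchors.

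SEPTIN9 was chosen by values measured in these same lists: earlier results gave it many control regions with both pSTAT3 and BCL9 near its TSSs, and a BCL9 region listed only after the knockdown. Those counts are therefore given as descriptions with no test. The height of a pair is given in tags and as its rank within its own list, where 1 is the strongest. Tags are multiples of the smallest step of the deposited signal in each library. A step is taken as 1 read, which the sources used here do not state. The longest list held 19.9 times as many pairs as the shortest. Counts across libraries were therefore taken after every list was reduced to its 24728 strongest pairs, as many as the shortest holds, and this is called equal list length.

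The sequences that follow come from some of the regions described below. The first pair comes from the strongest region of the locus, 25 kb upstream of the gene. The next ones come from the first intron and from directly before an internal TSS, and the last is the window where BCL9 was listed only in BCL9-KD cells. All are hg19, plus strand, 5′ to 3′, and capitals mark the string TGANTCA, which the AP-1 factors (FOS and JUN proteins) bind.
Upstream region, left AP-1 string, chr17:75250991-75251090: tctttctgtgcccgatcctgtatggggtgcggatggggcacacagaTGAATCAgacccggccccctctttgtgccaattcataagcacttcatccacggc
Upstream region, right AP-1 string, chr17:75251607-75251706: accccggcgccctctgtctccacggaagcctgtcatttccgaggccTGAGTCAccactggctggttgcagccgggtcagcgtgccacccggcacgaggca
First intron, chr17:75281871-75281970: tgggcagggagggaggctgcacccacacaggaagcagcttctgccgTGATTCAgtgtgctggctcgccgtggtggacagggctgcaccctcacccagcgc
Before the internal TSS, chr17:75401069-75401158: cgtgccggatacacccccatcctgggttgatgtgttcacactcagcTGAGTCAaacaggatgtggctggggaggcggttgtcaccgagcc
BCL9 knockdown-only window, no AP-1 string, chr17:75275880-75275979: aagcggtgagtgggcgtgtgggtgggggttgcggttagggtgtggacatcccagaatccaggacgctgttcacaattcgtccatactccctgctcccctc
The nearest control pSTAT3 midpoint lay 17, 6, 7 and 1 bp from the centre of the AP-1 string in the first 4 sequences. The nearest control BCL9 midpoint lay 4, 27, 7 and 6 bp from it. In the last sequence the nearest control pSTAT3 midpoint was 8 bp and the nearest control BCL9 midpoint 174 bp from the centre of the window.

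How dense was the locus? Among the 24728 strongest pairs, control pSTAT3 replicates 1 to 3 held 44, 52 and 43 pairs at SEPTIN9, and the BCL9-KD pSTAT3 libraries held 42 and 39. Control BCL9 replicates 1 to 3 held 27, 35 and 44, the BCL9-KD BCL9 libraries 42 and 39, and CTCF 15. Every pSTAT3 and BCL9 library held more pairs at the locus than CTCF did. SEPTIN9 was chosen for its pSTAT3 and BCL9 regions, so nothing is read from this order or from the fold values and ranks below. The locus made up 17.2 ± 1.87 times its share of the genome in the pSTAT3 lists (SD, n = 5), 14.6 ± 2.61 times in the BCL9 lists (SD, n = 5) and 5.87 times in the CTCF list. Ranked among 20136 genes by the number of pairs in the gene and its 50 kb flanks, SEPTIN9 was between 4th and 36th in the pSTAT3 libraries and between 14th and 64th in the BCL9 libraries. SEPTIN9 is long, and per 10 kb its rank was between 65 and 464 in those 10 libraries.

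**Figure D1:**
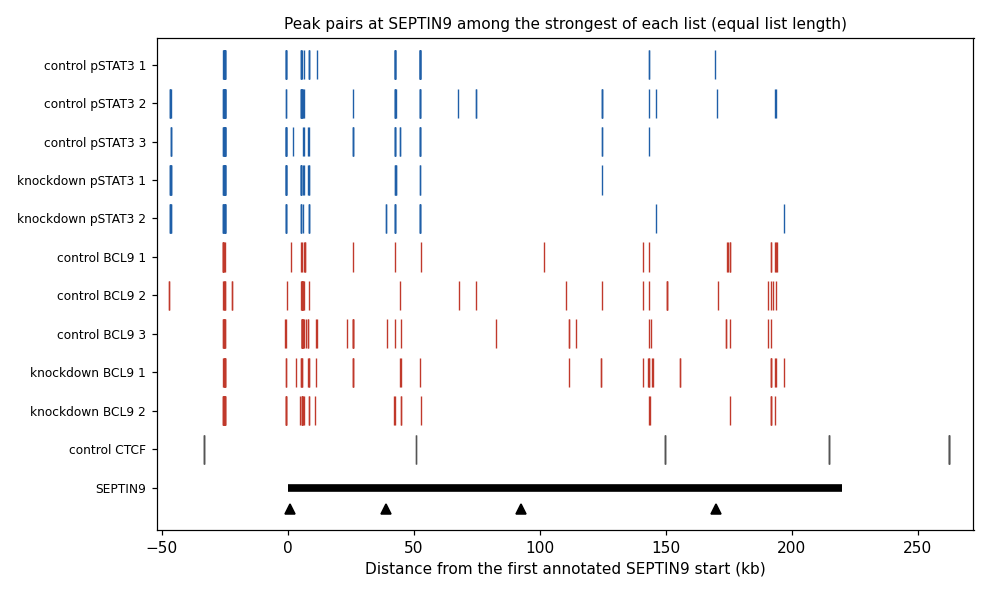
Position of each peak pair (vertical tick) among the 24728 strongest of its list, by library, with distance from the first annotated SEPTIN9 start in kb on the horizontal axis; the bar is the gene and the triangles are its 4 promoters used as landmarks. The block of ticks at 25 kb upstream appears in all 10 pSTAT3 and BCL9 libraries, while the CTCF ticks stand at 5 separate places.

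Did the knockdown change pSTAT3 at the locus? The mean number of pSTAT3 pairs was 46.3 ± 4.93 in control (SD, n = 3) and 40.5 ± 2.12 in BCL9-KD (SD, n = 2), a difference of -5.83 pairs. The 2 knockdown values lay below all 3 control values. By the exact permutation test the two-sided p was 0.3, and 10 assignments allow no p below 0.1, so this design cannot reach 0.05. SEPTIN9 was chosen partly by its control pSTAT3 regions, so the control counts are not free of that choice. How often other genes have this order is not given here, and nothing is read from the order or the p-value. Counts in the BCL9 libraries were 35.3 ± 8.5 in control (SD, n = 3) and 40.5 ± 2.12 in BCL9-KD (SD, n = 2), and the knockdown values fell inside the control range. pSTAT3 against BCL9 over both conditions gave 44 ± 4.85 and 37.4 ± 6.73 pairs (SD, n = 5 each), with an exact two-sided permutation p of 0.151, where the design allows 0.00794. Regions of both antibodies entered the choice of SEPTIN9, and this test pooled control and BCL9-KD libraries, so nothing is read from it. These p-values measure only the spread between the libraries of 1 cell line. Limited to the gene body, pSTAT3 held fewer pairs than BCL9 (log2 ratio -0.26), so the sign of the antibody difference came from the upstream flank.

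**Figure D2:**
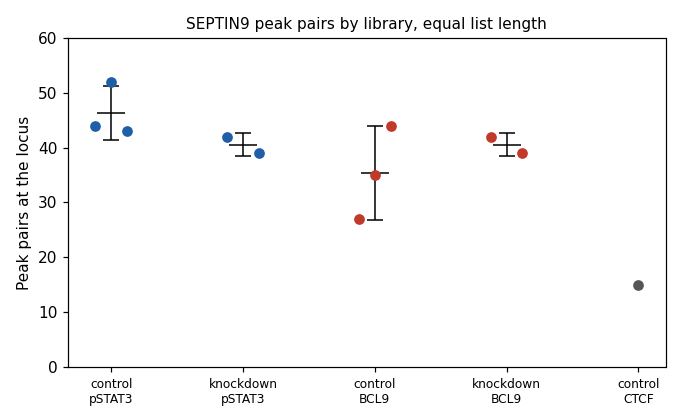
Number of peak pairs at the SEPTIN9 locus among the 24728 strongest of each list; points are libraries, the bar and whiskers are the mean ± SD of groups with more than 1 library. The control BCL9 libraries spread from 27 to 44, which spans both BCL9-KD values of 42 and 39.

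Many of these pairs stood next to each other. With pairs no more than 100 bp apart joined, the counts came down to 14, 22, 14, 11 and 13 separate windows for pSTAT3 (control replicates 1 to 3, then BCL9-KD replicates 1 and 2). For BCL9 they came down to 19, 25, 27, 26 and 19 in the same order. BCL9 thus stood at 19 to 27 separate places and pSTAT3 at 11 to 22, the opposite order from that of the pairs. The ranges overlapped through control pSTAT3 replicate 2.

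Many of the adjoining pairs stood in 1 region, chr17:75250969-75251930, a stretch of 962 bp centred at -25.2 kb from the first annotated TSS. It is outside any annotated exon and intron of SEPTIN9. At equal list length it held 14, 16, 13, 13 and 11 pSTAT3 pairs and 6, 5, 8, 8 and 13 BCL9 pairs. Its best pSTAT3 rank was 889, 586 and 860 in control replicates 1 to 3 (34, 37 and 67 tags) and 1410 and 673 in BCL9-KD (65 and 85 tags). Its best BCL9 rank was 2349, 805 and 444 in control (10, 25 and 51 tags) and 899 and 2377 in BCL9-KD (36 and 29 tags). Ranks of the control and knockdown libraries overlapped for both antibodies. This region alone held the strongest pair of the locus in 5 of the 10 pSTAT3 and BCL9 libraries. It shared that place in another 2, at rank 586 in control pSTAT3 replicate 2 and at rank 899 in BCL9-KD BCL9 replicate 1. The median distance from a control pSTAT3 midpoint to the nearest control BCL9 midpoint within it was 14 bp. CTCF was listed there only weakly, with 15 tags at rank 143299 of 457119.

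Further upstream, at -46.7 and -46.4 kb, a pair of neighbouring windows differed between libraries (chr17:75229768-75230070 and chr17:75230084-75230382, picked after their values were seen). In the second of them, pSTAT3 ranked 586 and 1536 in control replicates 2 and 3 and 642 and 3669 in BCL9-KD, but no pair was listed in control replicate 1. BCL9 was listed in neither window in 4 of its 5 libraries and stood at rank 76377 in the other, BCL9-KD replicate 2.

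At the first promoter, a region at -771 bp from the first annotated TSS (chr17:75275704-75276056, also within the divergent lncRNA gene SEPTIN9-DT) held pSTAT3 at ranks 5248, 3503 and 4209 in control (19, 19 and 40 tags). In BCL9-KD it held pSTAT3 at ranks 2067 and 407 (58 and 98 tags), so both knockdown ranks were better than every control rank. Of the 3032 pSTAT3 regions found in all 5 libraries genome-wide, 12.1% had this order and 11.2% the opposite one. At SEPTIN9, 1 of 4 such regions had it and 0 of 4 the opposite one. Among BCL9 regions in all 5 libraries 10.3% and 13.4% had these orders genome-wide, and 0 of 4 at SEPTIN9 had either.

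The same promoter window was where BCL9 was listed only in BCL9-KD libraries, at chr17:75275847-75276012. BCL9-KD replicates 1 and 2 had it at ranks 1080 and 977 (34 and 37 tags), and no control BCL9 list held a pair in it at any height. It was 1 of 64 BCL9 regions of the locus (1.56%), beside 1.63% of all 43123 BCL9 regions, a share near the background. The control BCL9 libraries differed in what stood near it. Control BCL9 replicate 1 had no pair within 1 kb of the centre of the window, its nearest being 1795 bp away. Control BCL9 replicate 2 had a pair of 16 tags at rank 3168 whose midpoint was 226 bp from the centre of the window, and control BCL9 replicate 3 had a pair of 12 tags 174 bp away and another at rank 7726 in the wider pSTAT3 region. With 200 bp windows the region was no longer knockdown-only, while it remained so when absence was asked of the full control lists. No BCL9 region of the locus was control-only (0 of 64, background 0.596%).

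For pSTAT3, 0 of 28 regions at SEPTIN9 were knockdown-only (background 2.13%) and 1 of 28 was control-only (3.57%, background 1.02%). The latter is an intronic region (chr17:75419763-75419967) with 10, 11 and 20 tags in control at ranks 20295, 11762 and 21031. Both BCL9-KD pSTAT3 libraries still listed it, with 14 tags each at ranks 52571 and 59504, below the equal-length limit. BCL9 was listed there in 4 of 5 libraries, the strongest being BCL9-KD replicate 1 with 23 tags at rank 3231.

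Regions found in all 5 libraries of an antibody at equal list length numbered 4 of 28 for pSTAT3 (14.3%, background 14.1%) and 4 of 64 for BCL9 (6.25%, background 4.91%). The upstream region was in both sets. In the BCL9 set it was split into chr17:75250954-75251376 and chr17:75251449-75251795, each counted as a region of its own. The other pSTAT3 ones were the first promoter, an intronic region 577 bp after the TSS at 75318692 (chr17:75319078-75319461) and another 10.5 kb after that TSS (chr17:75328996-75329448). In the region at 75319078, pSTAT3 ranked 3510, 3503 and 4833 in control and 1880 and 3905 in BCL9-KD, and BCL9 ranked no better than 10451. In the region at 75328996, pSTAT3 ranked 1890, 1093 and 5187 in control and 3661 and 16956 in BCL9-KD.

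BCL9 had its own constant site near the 3′ end, in an intron 192 kb into the gene (chr17:75468104-75468291). BCL9 ranked 4277, 4644 and 483 there in control and 899 and 10451 in BCL9-KD. pSTAT3 was not listed there in control replicates 1 and 2, and its best rank in the other 3 libraries was 38750. It was the 1 control BCL9 region of 19 at the locus with no control pSTAT3 region over it.

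Start sites of 4 annotated transcripts at 0.93, 38.9, 92.6 and 170 kb from the first annotated start served as landmarks and are called the first, the second, the third and the fourth promoter. Along the gene, both antibodies were densest upstream and around the first promoter. From the start of the locus to 5 kb before the first promoter (45.9 kb), the 5 pSTAT3 libraries held 14 to 20 pairs and the 5 BCL9 libraries 6 to 13. From the first promoter to the second (38 kb) they held 11 to 16 and 7 to 22. From the second to the third (53.7 kb) the counts were 6 to 13 for pSTAT3 and 2 to 5 for BCL9, and from the third to the fourth (77.5 kb) 1 to 5 and 2 to 11. From the fourth promoter to the end of the gene (54.9 kb) pSTAT3 held 0 to 3 pairs and BCL9 5 to 9. At equal list length the order of the antibodies thus turned between the 5′ and the 3′ parts of SEPTIN9. That length reached down to 5 tags in control BCL9 replicate 1, where 19 locus pairs were tied at the limit. In BCL9-KD pSTAT3 replicate 2 it ended at 24 tags, so weak BCL9 pairs stand beside stronger pSTAT3 ones. The ranges of the 2 antibodies did not overlap in the upstream flank, between the second and the third promoter, or after the fourth promoter. Of the upstream pairs, 11 to 16 per pSTAT3 library and 5 to 13 per BCL9 library stood in the 1 region at -25.2 kb. How often segments of other genes differ in this way is not given here, so it is not read as particular to SEPTIN9.

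From 5 kb before the third promoter onward lay 2.38% to 15.4% of the pSTAT3 pairs of the locus and 17.9% to 44.4% of the BCL9 pairs. Counted as separate windows the shares were 9.09% to 22.7% and 26.3% to 47.4%. These segments were compared after their values were seen and no test was made. In the full lists, which differ in length, the ranges overlapped in all 3 of those segments. They were 19 to 46 pairs for pSTAT3 and 7 to 33 for BCL9 upstream, 15 to 72 and 3 to 49 from the second promoter to the third, and 15 to 63 and 5 to 45 after the fourth promoter. In the 50 kb after the gene, no pSTAT3 or BCL9 library held a pair at equal list length, and CTCF held 4.

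**Figure D3:**
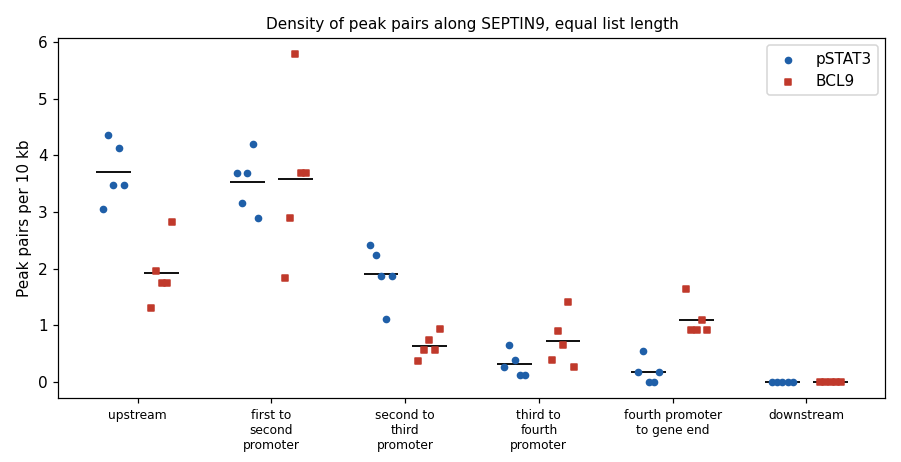
Peak pairs per 10 kb along SEPTIN9 among the 24728 strongest pairs of each list, in 6 segments bounded 5 kb before each of the 4 promoters; points are libraries of both conditions (circles pSTAT3, squares BCL9) and lines are means. pSTAT3 lies above BCL9 upstream and between the second and the third promoter, and below it after the fourth promoter.

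By TSS, the cluster at 75276651 to 75277581, which holds the first promoter, had 23 pSTAT3 and 10 BCL9 pairs within 1 kb over 5 libraries each. The TSS at 75318692 had 23 and 4, and the TSS at 75283973 had 4 and 11. Windows of either antibody at equal list length were absent within 1 kb of the clusters at 75369272, 75372165 and 75376205, which include the third promoter. The TSS at 75452448 had 0 pSTAT3 and 4 BCL9 pairs. CTCF had no pair at equal list length within 1 kb of any of the 15 clusters. No RNA was analysed here, so which of these TSSs are in use is not known from these data.

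Consensus regions, 100 bp windows merged and kept when found in at least 2 of 3 control libraries of the full lists, numbered 49 for pSTAT3 and 19 for BCL9 at SEPTIN9. Of the 49 pSTAT3 regions, 17 shared at least 1 bp with a BCL9 region (34.7%), beside 23.1% of all 37044 control pSTAT3 regions. SEPTIN9 was chosen for such regions, so nothing is read from this difference. The number of co-occurring regions rested on 1 library. It was 17 with all libraries and 6 without control BCL9 replicate 3, 11 without control BCL9 replicate 1 or 2, and 7 at equal list length. Of the 17, 13 lay within 5 kb of a SEPTIN9 TSS, 3 overlapped an exon, 13 were intronic and 1 was upstream. In BCL9-KD, 15 of the 17 (88.2%) overlapped a region that held both antibodies in both libraries, beside 73.8% of all control co-occurring regions, and the full knockdown lists were longer.

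After the upstream region, the best median rank over the 6 control libraries belonged to chr17:75282277-75282579, which overlaps an exon, is centred at -1545 bp from the TSS at 75283973 and holds the STAT string TTCNNNGAA. At equal list length it held BCL9 pairs in 5 of 5 libraries and pSTAT3 pairs in 2 of 5. BCL9 ranked 4277, 2287 and 2675 in control and 1299 and 2946 in BCL9-KD, with 8, 18, 29, 32 and 27 tags. pSTAT3 ranked 20295, 6089 and 31185 in control and 29215 and 40143 in BCL9-KD, with 10, 15, 16, 20 and 18 tags. The median distance from a control pSTAT3 midpoint to the nearest control BCL9 midpoint was 2 bp, among 11 pSTAT3 and 18 BCL9 midpoints.

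4 co-occurring regions stood side by side before that TSS, counting this one. The one at chr17:75281789-75282207, which holds the printed intronic AP-1 string, had pSTAT3 ranks of 6839, 11762 and 43571 in control and 3239 and 19881 in BCL9-KD. Its BCL9 ranks were 9075, 1714 and 8640 in control and 5866 and 42507 in BCL9-KD. In chr17:75282742-75282933, with a C/EBP string (TTGCNNAA), BCL9 was listed in 1 of 3 control libraries, replicate 3 at rank 6288, and in both BCL9-KD libraries. In chr17:75283011-75283283, with none of the strings searched, both antibodies were listed in all 10 libraries, and BCL9 ranked from 3792 to 38529.

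The other named regions lie further into the gene. At chr17:75302493-75302675 pSTAT3 ranked 29274, 4518 and 6439 in control (8, 17 and 34 tags) and 72056 and 66127 in BCL9-KD (11 and 13 tags). Several of these ranks lie past the equal-length limit in lists of unequal length, so no order is read from them. Control BCL9 replicate 2 held no pair there. At chr17:75328996-75329448 the median distance from a control pSTAT3 midpoint to the nearest control BCL9 midpoint was 200.5 bp. In the other 16 regions it was 2 to 58.5 bp. The value of 200.5 bp rests on 2 BCL9 pairs, both of control replicate 3, and their median midpoint lay beyond the end of the region. At chr17:75400867-75401211, which overlaps an exon, spans the TSS at 75401159 and holds the printed AP-1 string, pSTAT3 ranked 24599, 3503 and 6942 in control and 24356 and 27828 in BCL9-KD. At chr17:75469998-75470227, at -1213 bp from the TSS at 75471325, both antibodies were listed in all 10 libraries, with the best ranks 4518 for control pSTAT3 replicate 2 and 2609 for BCL9-KD BCL9 replicate 1. The region at chr17:75419763-75420013, with the TEAD string GGAATG, contains the control-only pSTAT3 region given above. The best region near the TSSs at 75446649 to 75452448 was chr17:75450478-75450709, which overlaps an exon and was listed in 7 of 10 libraries with pSTAT3 no better than rank 34741. The best near the TSS at 75462485 was chr17:75467233-75467446, also in 7 of 10.

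**Figure D4:**
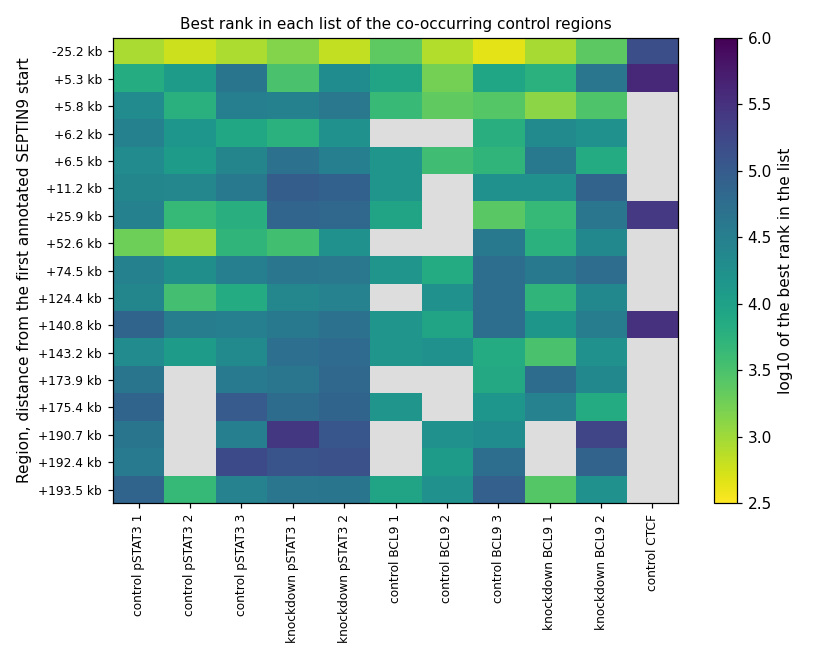
Best rank in each list, as log10, of a peak pair in each of the 17 control co-occurring regions at SEPTIN9, ordered along the gene by distance from the first annotated start; yellow is strong, purple weak and grey not listed. The region at -25.2 kb is strong in all 10 pSTAT3 and BCL9 libraries, and CTCF is grey in 13 of the 17 regions.

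The strings of known factors were found in smaller shares of the co-occurring regions at SEPTIN9 than of all such regions when all libraries were used, with each background share inside the interval of the 17 regions. Each was searched on both strands. TGANTCA was in 5 of the 17 co-occurring regions (29.4%, 95% Wilson interval 13.3 to 53.1), beside 47.1% of all 8542. This share was 50.0% (3 of 6) without control BCL9 replicate 3 and 46.2% (6 of 13) without control pSTAT3 replicate 3, so it is not firmly below the background. The TEAD string was in 4 (23.5%, beside 31.1%), the C/EBP string in 3 (17.6%, beside 27.2%) and the STAT string in 1 (5.88%, beside 12.4%). The ETS string CCGGAAG and the TCF/LEF string CTTTGAT were in 0 of 17, with a Wilson upper bound of 18.4%. Regions at SEPTIN9 were narrower, with a median width of 256 bp beside 309 bp, so fixed 100 bp windows of the 24728 strongest pairs were also searched. Of these, the AP-1 string occurred in 20.9% to 38.5% of the pSTAT3 windows at SEPTIN9 and in 36.9% to 48.1% of all pSTAT3 windows, lower at SEPTIN9 in 5 of 5 libraries. For BCL9 the shares were 9.09% to 19% and 13% to 22.7%, higher at SEPTIN9 in 2 of 5 libraries. The TEAD string was in 4.55% to 5.77% of the pSTAT3 windows at SEPTIN9 and in 10.8% to 12.6% of all. In BCL9 windows it was in 5.71% to 12.8% and in 9.68% to 12%. The STAT string was in 0 to 2.56% of the pSTAT3 windows at SEPTIN9 (2 of 220) and in 3.65% to 3.82% of all. For BCL9 its shares were 0 to 2.56% (2 of 187) and 3.18% to 3.41%. The C/EBP string was in 2.27% to 5.77% and 8.52% to 9.34% for pSTAT3, and in 0 to 7.41% and 10% to 11.7% for BCL9. Both strings were lower at SEPTIN9 in 5 of 5 libraries of each antibody. For every string, adjoining windows share bases and many sites recur between libraries. Counts of windows and of libraries thus repeat the same sequences and are not independent. The TCF/LEF string was in 0 to 5.71% of the BCL9 windows at SEPTIN9 and in 1.23% to 1.39% of all, higher at SEPTIN9 in 3 of 5 libraries, and the ETS string was higher there in 2 of 5. These rest on 4 and 2 of 187 windows. The windows at SEPTIN9 were richer in G and C, at 56.5% to 59.9% over the 10 libraries beside 51.0% to 52.6% of all windows on chromosome 17. The part of base composition in these shares was not tested.

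The strong CTCF pairs stood at few places. The 15 pairs at equal list length formed 5 clusters, at -33.4 kb from the first start, at 51, 150 and 215 kb within the gene, and at 262 kb, beyond the gene. The strongest were chr17:75538882-75539028 (rank 610, 179 tags), chr17:75243188-75243381 (rank 650, 176 tags), chr17:75491130-75491258 (rank 1805, 138 tags) and chr17:75426190-75426370 (rank 2635, 125 tags). The last lies in an intron and had a control pSTAT3 midpoint 16 bp away. The fifth, chr17:75538936-75538993, belongs to the same downstream cluster as the first. A CTCF window of the full list touched 4 of the 17 co-occurring regions (23.5%, 95% Wilson interval 9.56 to 47.3), beside 22.9% of all, each with 3 to 15 tags. At equal list length CTCF touched 0 of the 17, beside 0.609% of all 8542, so that this count is near the background as well. The pSTAT3 regions without BCL9 touched a CTCF window in 11 of 32 cases (34.4%, 95% Wilson interval 20.4 to 51.7, beside 15.7%). Of these, 1 held a strong CTCF pair, with 125 tags at rank 2635 (chr17:75426113-75426389). In the others CTCF was weak, with 3 to 25 tags and a best rank of 96704. There was 1 CTCF library, so these values have no replicate.

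Related genes were counted from a list of septins and septin-binding proteins. Of 13 septin genes, SEPTIN9 alone had both antibodies in control cells within 5 kb of a start site, and of 6 septin-binding proteins CDC42EP4, a Borg protein that binds septins downstream of CDC42, had 2 such regions. Together this was 2 of 19 genes, beside 5.76% of all protein-coding genes, and SEPTIN9 entered the list because of its regions. Without SEPTIN9 it was 1 of 18, a share near the background. The windows of the other genes were shorter, at 108 to 206 kb beside 320 kb. At equal list length SEPTIN9 held a mean of 44 pSTAT3 and 37.4 BCL9 pairs. SEPTIN1 held 0 and 7.8, and no other septin gene held a mean above 2.4 for either antibody. Of the Borg genes, CDC42EP1 (9.2 and 4.6), CDC42EP3 (7.8 and 11.8) and CDC42EP4 (4.8 and 8.2) held means above 2.4 for both antibodies. The Borg genes CDC42EP2 (0.2 and 0.8) and CDC42EP5 (0.2 and 1.0) did not, nor did ANLN (0.4 and 0.6).

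The genes whose counts moved most like those of SEPTIN9 over the 10 pSTAT3 and BCL9 libraries, of 629 with enough pairs, were SLC35F6 and CENPA (Pearson r = 0.868 each), KCNK3 (0.851), ENSG00000249967 (0.826) and YWHAQ (0.802). SLC35F6, CENPA and KCNK3 are neighbours on chromosome 2 and share pairs through their flanks. The points share antibody, condition and list length, so these values are descriptions.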

How the data were processed

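The authors cultured control and BCL9-KD DCIS.COM cells, crosslinked them, performed ChIP-exo and deposited 1 list of peak pairs per library in hg19. The lists come from a peak-pairing step after bcl2fastq. The aligner and its settings were not given in the sources used here. Column 6 of the deposited files is a signal, in values that are whole multiples of 1 step in each library. Division by that step (within 0.01 of a whole number) gave tags, on the assumption that 1 step is 1 read, and pairs were ranked by tags. Equal list length kept the 24728 strongest pairs, with ties drawn at random (seed 1). Windows were 100 bp round midpoints. Gene models were GENCODE 44 on GRCh37, the same sequence as hg19. Counts were compared by exact permutation tests over every assignment of libraries to groups. Wilson intervals came from scipy 1.17.1. Scripts were tested on simulated data. The members and lists were chosen with earlier results of these data known. Regions named were the 10 best co-occurring ones by median control rank, the best near each TSS cluster, all condition-only regions and the 5 strongest CTCF pairs. Counts rest on list length as depth, since read totals were not used here.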

Additional observations from a re-analysis of the deposited data

How the results depend on the processing

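Of 90 alternatives, 68 kept the direction and stayed within the error of the reported value or, for counts, close to it. Among the 5000 strongest pairs the pSTAT3 log2 ratio of BCL9-KD to control was 0.21 in place of -0.19. The BCL9 ratio, 0.20, became -0.34 with all listed pairs, 0.50 with at least 9 tags and 0.66 among the 5000 strongest. The ratio of pSTAT3 to BCL9, 0.23, became -0.29 with all listed pairs and -0.26 in the gene body. The number of co-occurring regions, 17, was 7 at equal list length, 6 when found in all 3 libraries and 6 to 17 with a library left out. Their share of pSTAT3 regions, 34.7%, was 50.0% at equal list length and 12.2% to 54.2% with a library left out. The CTCF share, 23.5%, was 0 at equal list length and 50.0% with 200 bp windows. The BCL9 knockdown-only count of 1 was 0 with 200 bp windows and 0 without flanks, since the region lies in the flank. The count of 2 listed genes was 1 within 1 kb and 1 at equal list length. The cause of the other changes was not tested. The AP-1 share, 29.4%, ran from 25.0% to 50.0% over its 11 alternatives, inside its counting interval. Ties in file order and fixed 100 bp windows were chosen after seeing the data.

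With a replicate block the log2 ratios were -0.24 for pSTAT3 (exact sign-flip p = 0.5), 0.40 for BCL9 and 0.25 between the antibodies (exact p = 0.5). For pSTAT3, with 2 BCL9-KD libraries to pair, that test can give no p below 0.5, so nothing is read from it. Samples share only a number: same-numbered samples had correlations of -0.0174 to 0.0514 over 5042 genes. Both same-numbered BCL9-KD comparisons of pSTAT3 with BCL9 gave 0.00864, so these values are not read as the likeness of whole libraries. Short lists limit the weak regions, since control BCL9 replicate 1 ended at 28690 pairs.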
